A study of Mus musculus with 47 samples.

Results

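The unfolded protein response and the integrated stress response were followed in primary mouse B cell lymphoma cells through 10 genes. The genes were listed by name, with earlier results of these data known. A probe set entered when its platform symbol was exactly that of the gene, which gave 20 of the 45101 probe sets and 10 of the 18194 genes on the array. All 10 genes were measured, and none was removed for a low level. Each gene is represented by its probe set with the highest mean over the arrays, and the other probe sets of the 7 genes that have several served as a check. Atf4, Ddit3, Trib3, Chac1, Asns and Ppp1r15a form the ATF4 arm (6 genes). Hspa5, Dnajb9, Herpud1 and Atf6 form the endoplasmic reticulum (ER) chaperone arm (4 genes).

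All cells came from Eµ-myc transgenic mice, in which Myc is constitutively active in B lineage cells, and all carried retroviral Bcl2, which blocks apoptosis. Cultures grew on NIH 3T3 mouse fibroblasts irradiated with 20 Gy, in medium with 4 mM glutamine and 25 µM β-mercaptoethanol, a reducing agent, and they were selected with puromycin for 48 h. The 7 groups were Suv39h1 WT lymphomas under Adriamycin (ADR) and native (14 each), Suv39h1- lymphomas under ADR and native (5 each), and Suv39h1- lymphomas carrying Suv39h1ER under ADR with 4OHT, under ADR alone and native (3 each). ADR is doxorubicin, a drug that damages DNA, given at 0.05 µg/ml for 5 days. Suv39h1 is a histone H3 lysine 9 methyltransferase. Its fusion Suv39h1ER, in whose name ER does not mean endoplasmic reticulum, is switched by 4-hydroxytamoxifen (4OHT), at a dose that the labels do not state. By their labels, 2 of the 7 groups are senescent: WT lymphomas given ADR, and Suv39h1ER cultures given ADR plus 4OHT. Lymphoma numbers 5043 and 4936 each stand on a Suv39h1ER culture and on a culture of another genotype, and these were treated as separate cultures.

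Cells meet protein folding stress and nutrient stress by phosphorylating the translation factor eIF2, which slows protein synthesis but favours translation of ATF4. ATF4, a transcription factor, then induces genes for amino acid supply and for damage control, among them the pro-apoptotic factor CHOP (Ddit3). In parallel, the ER sensors ATF6 and IRE1 raise chaperones and the machinery that removes misfolded proteins from the ER. B lineage cells are known to use the IRE1 branch when they become antibody-secreting plasma cells.

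The arrays measured 47 samples of 22 cultures, as log2 levels. Array medians were 4.32 to 4.43, apart from 4.07 on the ADR array of Suv39h1- lymphoma 1032. The targeted gene, Suv39h1, was not analysed here and gives no check of genotype. The B cell receptor component Cd79b had levels of 9.61 to 11.87 over WT arrays, and the T cell gene Cd3e 4.76 to 5.36. Another B cell marker, Cd79a, was less even. Its medians were 9.87 in native WT cells and 8.88 under ADR, against 8.02 and 8.41 in Suv39h1- cells. The macrophage marker Lyz2 had medians of 10.99 in native WT cells and 12.53 under ADR. In Suv39h1ER cells they were 7.77 in native cells and 12.75 under ADR alone. The collagen gene Col1a2, made by fibroblasts, was at 5.85 to 11.81 in WT cells under ADR and at 4.53 to 6.99 in native WT cells, so its level was unequal between the groups. Fewer cells of a type and less RNA per cell cannot be told apart in such bulk samples. The expression profiles of WT lymphomas 2949, 5043, 5766 and 6054 resemble each other, as do those of Suv39h1- lymphomas 7890 and 9250, and results were repeated with each set counted as 1 lymphoma.

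Promoter stretches of 4 members carry the letters of known stress response elements, and they are shown because these elements are the known route by which stress factors reach such genes. RefSeq windows of 300 bases (250 before the start, 50 after; build GRCm38.p6) were found for 9 of the 10 members, the exception being Atf6. Capitals mark the ER stress response element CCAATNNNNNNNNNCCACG (ERSE), its second form ATTGGNCCACG (ERSE-II) and the core TGATGNAA of the element that ATF4 binds with C/EBP partners (CARE). Both strands were searched, and the printed matches do not overlap each other. Hspa5 (chr2:34771980-34772059, plus strand) has an ERSE at bases -65 to -47 from the start. Herpud1 (chr8:94386299-94386398, plus strand) has an ERSE-II at -52 to -42 and a reverse CARE core at -112 to -105. Asns (chr6:7693210-7693289, minus strand) has a CARE core at -23 to -16, and Chac1 (chr2:119351012-119351091, plus strand) has a reverse one at -193 to -186.
Hspa5: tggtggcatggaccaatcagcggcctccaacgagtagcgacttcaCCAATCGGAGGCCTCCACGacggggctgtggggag
Herpud1: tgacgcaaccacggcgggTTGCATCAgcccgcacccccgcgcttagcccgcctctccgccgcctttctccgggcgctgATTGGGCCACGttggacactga
Asns: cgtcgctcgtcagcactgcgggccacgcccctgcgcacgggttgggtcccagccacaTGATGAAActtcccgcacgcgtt
Chac1: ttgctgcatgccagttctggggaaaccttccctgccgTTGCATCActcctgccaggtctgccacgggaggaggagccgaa
Trib3 also has a CARE core, at 15 to 22 bases after its start. Among all 32851 promoter windows, 0.119% hold an ERSE, 0.0365% an ERSE-II and 3.97% a CARE core. A match of letters is a description and does not show that a factor binds there.

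In WT lymphomas under ADR, 4 of the 10 genes were higher than in the native cells and none was lower (limma with lymphomas as blocks, Benjamini-Hochberg adjusted p under 0.05 over all genes, the rule for every call here). Of all 18194 genes, 30.2% were called in this comparison, 16.1% higher and 14.1% lower. The 4 genes were Dnajb9, Ddit3, Ppp1r15a and Atf4, which split over both arms. The share of members called was thus near the background in total, and the higher direction held all 4 of them.

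Dnajb9 (ERdj4), an ER co-chaperone induced through IRE1 and its target XBP1, had log2 levels of 8.46, 8.96 and 9.97 (lowest, median, highest) in WT cells under ADR, against 7.79, 8.24 and 8.81 in native WT cells. The groups overlapped at their edges, yet Dnajb9 was higher under ADR in 14 of 14 lymphomas, with changes of 0.15 to 1.28. The mean change was 0.73 log2 (1.66-fold, SE 0.10, adjusted p = 7.1e-06 by limma). It was 0.68 with the alike lymphomas counted as 1 (adjusted p = 8.47e-05).

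Ddit3 (CHOP), a transcription factor of the C/EBP family that promotes cell death under lasting stress, had levels of 7.32, 8.51 and 9.70 under ADR, against 6.57, 7.49 and 10.34 in native WT cells. The native array of lymphoma 2949 was the highest of all 28. Ddit3 was higher in 12 of 14 lymphomas, and its change ran widely, from -0.76 in lymphoma 1467 to 2.44 in lymphoma 403. The mean change was 0.97 log2 (1.95-fold, SE 0.25, adjusted p = 0.00455 by limma). A dimmer Ddit3 probe set gave 0.40 (adjusted p = 0.323 over all probe sets), which did not pass.

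Ppp1r15a (GADD34), the phosphatase subunit that reverses eIF2 phosphorylation, had levels of 7.50, 8.21 and 9.37 under ADR, against 7.08, 7.72 and 9.22 in native WT cells. The ranges overlapped almost entirely, while 12 of 14 lymphomas had the higher level under ADR. The mean change was 0.50 log2 (1.41-fold, SE 0.17, adjusted p = 0.025 by limma). The call was lost without lymphoma 2581, 403 or 5560, at adjusted p = 0.0605 to 0.0643, and without the replicate block, at adjusted p = 0.0628.

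Atf4 itself had levels of 10.26, 10.88 and 11.65 under ADR, against 10.07, 10.56 and 11.33 in native WT cells. It too was higher in 12 of 14 lymphomas, and its changes ran from -0.26 to 0.96 in overlapping groups. The mean change was 0.31 log2 (1.24-fold, SE 0.09, adjusted p = 0.00713 by limma). A second Atf4 probe set gave 0.29 (adjusted p = 0.0757 over all probe sets), and the other one 0.03 (adjusted p = 0.903), so neither was called.

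The other members of the ATF4 arm did not pass. Chac1, a glutathione-degrading enzyme induced by ATF4, had levels of 5.29, 6.55 and 8.82 under ADR, against 5.56, 6.21 and 7.33 in native WT cells. Its change of 0.67 had an adjusted p of 0.0522 by limma, with values from -0.88 to 3.14 and 9 of 14 lymphomas higher. Leaving out any of 5 lymphomas took it past the threshold, the smallest adjusted p being 0.0222 without lymphoma 1570. Trib3, a pseudokinase that holds back ATF4 and CHOP, split evenly, with 7 lymphomas higher and 7 lower, changes of -2.02 to 2.39 and a mean of 0.10 (adjusted p = 0.848 by limma).

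Asns, asparagine synthetase, was the member with a negative mean in WT cells. Its levels were 7.99, 9.63 and 10.81 under ADR, against 7.56, 9.98 and 11.08 in native WT cells. Its change was -0.29 (adjusted p = 0.179 by limma), with 10 of 14 lymphomas lower. Lymphoma 403 had the largest opposite change, 1.34, and without it the change was -0.41 and passed (adjusted p = 0.0187).

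Hspa5 (BiP), the main ER chaperone, Herpud1, a component of ER-associated degradation, and Atf6, the ER-anchored sensor, had mean changes close to 0 in WT cells. Hspa5 had levels of 11.93, 12.06 and 12.93 under ADR, against 11.44, 12.04 and 12.83 in native WT cells, with a mean change of 0.09 (95% interval -0.14 to 0.32, adjusted p = 0.632). The mean change of Herpud1 was 0.11 (-0.20 to 0.42, adjusted p = 0.657) and that of Atf6 0.09 (-0.34 to 0.52, adjusted p = 0.812, all by limma). Single lymphomas varied more, Herpud1 from -0.90 to 1.27, and Atf6 from -1.98 in lymphoma 5560 to 1.77 in lymphoma 1467. With the alike lymphomas counted as 1, the values of Hspa5, Herpud1, Atf6 and Trib3 were -0.07, -0.04, -0.03 and -0.21, so none of these 4 has a settled direction.

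**Figure D1:**
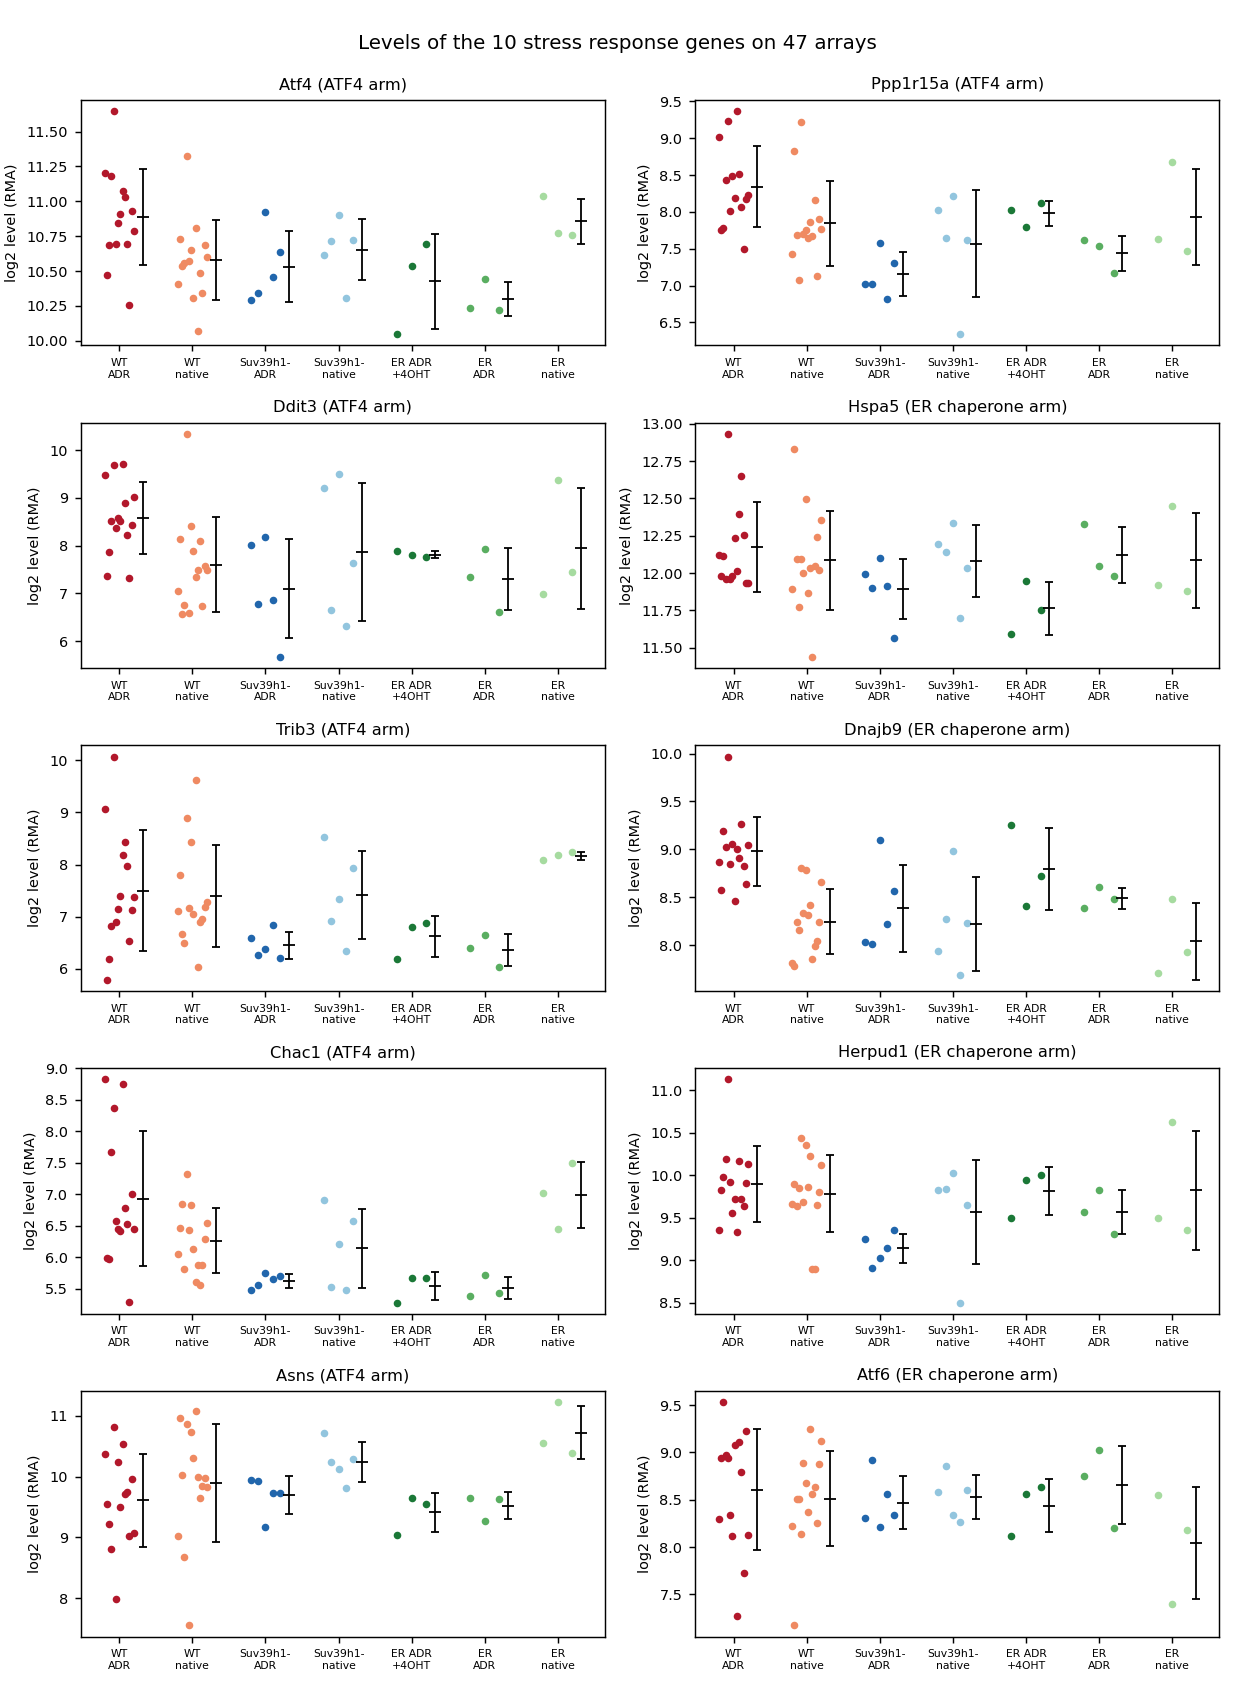
Log2 level of each of the 10 genes (y axis) on every array, with the 7 groups along the x axis (ER in the group labels, Suv39h1ER). Points are arrays, and the black mark is the group mean with its SD. Dnajb9 is shifted upward in WT cells under ADR, Trib3 and Chac1 are low in all groups of Suv39h1- and Suv39h1ER cells under ADR, and Hspa5 overlaps between all ADR groups and their native groups.

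A list of 21 fibroblast markers moved with treatment in the same WT samples, so the changes were set beside it. Its mean log2 change was 1.76 ± 1.28 (SD, n = 14), from -0.06 in lymphoma 1467 to 4.13 in lymphoma 403, and 19 of its 21 genes were called higher. Its summed level was 9.61 to 14.97 under ADR and 8.82 to 10.24 in native WT cells. In a fit of the 14 changes on that of the list, 17.9% of all genes had a slope that passed, among them 5 of the 10 members. Ddit3 changed by 0.59 per log2 unit of the list (adjusted p = 0.00676), Chac1 by 0.66 (0.0175), Ppp1r15a by 0.46 (0.00133) and Asns by 0.35 (0.0355), while Atf6 ran the other way at -0.47 (adjusted p = 0.0425, all by limma). Dnajb9 had a slope of 0.01 (95% interval -0.15 to 0.17), and that of Atf4 was 0.11 (-0.03 to 0.25).

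Lymphomas 403 and 5560 lie farthest from the median of the list. Without them 1 of the 5 slopes passed, that of Ppp1r15a at 0.44 (adjusted p = 0.0464), and over all genes 1850 slopes passed in place of 3252. The slope of Ddit3 was then 0.53 (adjusted p = 0.143), that of Asns 0.35 (0.103) and that of Atf6 -0.49 (0.128), so these 4 were close to their values over 14 lymphomas. That of Chac1 was 0.24 (adjusted p = 0.597), well under its earlier 0.66. At a fibroblast list change of 0 the fitted change of Ddit3 was -0.07, of Ppp1r15a -0.31 and of Chac1 -0.49. Of the 4 higher genes Dnajb9 alone still passed there (0.72, adjusted p = 0.0102), while Atf4 was at 0.12 (adjusted p = 0.692). Asns passed as lower in that fit, at -0.90 (adjusted p = 0.0199), and Atf6 was at 0.91 (adjusted p = 0.0822), with 2129 genes called. At the mean of the list 5 members passed. Markers of macrophages and monocytes also moved, by 1.37 ± 0.78 over 14 lymphomas with 9 of 14 genes called higher, and those of neutrophils by 0.83 ± 0.44 with 3 of 9, the median over the 9 genes being 0.03. B cell markers moved by -0.40 ± 0.47, with 3 of 7 called lower, and T cell and plasma cell markers by 0.08 ± 0.15 and 0.18 ± 0.56, with 0 of 7 and 2 of 8 called higher. Dnajb9 was higher by 0.79 in lymphoma 1467, with the lowest change of the fibroblast list, and by 1.06 in lymphoma 403, with the highest. The macrophage list was higher in every WT lymphoma, by 0.40 or more, and no fit was run on it. The share of these cells in the changes of the stress genes, Dnajb9 among them, was not tested beyond the fit on the fibroblast list.

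**Figure D2:**
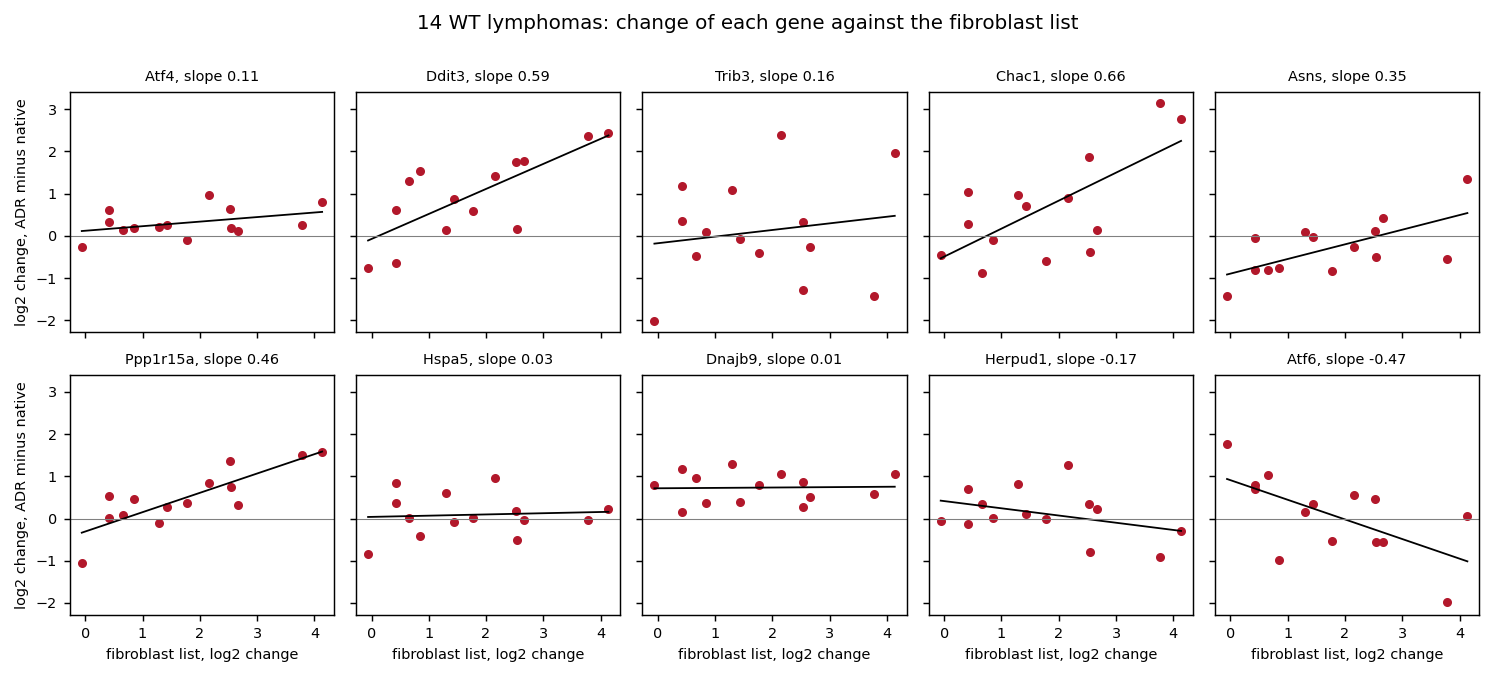
Each panel plots, for the 14 WT lymphomas, the log2 change of 1 gene (ADR minus native, y axis) against the mean log2 change of the fibroblast list (x axis), with the fitted line. Ddit3, Chac1 and Ppp1r15a climb along the list, Atf6 descends, and Dnajb9 is flat and above 0 in all 14 lymphomas.

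In Suv39h1- lymphomas, none of the 10 genes passed between ADR and native cells, in a comparison where 0.011% of all genes did. At an unadjusted p under 0.05, 2 members and 1885 genes passed. Mean changes were negative for 9 of the 10, the exception being Dnajb9 at 0.16 (adjusted p = 0.801 by limma). Of all 18194 genes, 7607 had a change above 0 there. The levels of Trib3 were 6.39, 6.84, 6.20, 6.59 and 6.26 under ADR in lymphomas 5783, 7890, 9250, 1032 and 4936, against 7.35, 6.35, 7.94, 8.53 and 6.92 in the native cells of the same lymphomas. The ADR values lay close together at the lower end of the native ones, with a change of -0.96 (SE 0.46, p = 0.0449, adjusted p = 0.466 by limma) and 4 of 5 lymphomas lower. The largest fall, -1.94, was that of lymphoma 1032, whose ADR array had the lowest median, 4.07.

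Chac1 showed the same shape, with 5.74, 5.66, 5.70, 5.48 and 5.55 under ADR against 6.21, 5.48, 6.57, 6.91 and 5.54 in native cells, in the same order of lymphomas. Its change was -0.51 (adjusted p = 0.729 by limma), and 2 of 5 lymphomas were higher. The Chac1 levels under ADR were near 5.45, the median level over all genes, and whether they reach a detection floor was not tested. Asns was lower in 5 of 5, at 9.16, 9.73, 9.73, 9.94 and 9.92 under ADR against 10.12, 9.81, 10.29, 10.72 and 10.23 in native cells, a change of -0.54 (p = 0.047, adjusted p = 0.472 by limma). The fibroblast list moved by 0.14 ± 0.22 (SD, n = 5) in these lymphomas, from -0.07 to 0.45.

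Ddit3 had 8.19, 6.86, 5.67, 8.01 and 6.78 under ADR against 9.49, 6.32, 7.63, 9.21 and 6.66 in native Suv39h1- cells. It was lower in 3 of 5, by up to 1.96 in lymphoma 9250, and the mean change was -0.76 (adjusted p = 0.556 by limma). Lymphoma 7890 stood apart from the others in that 9 of the 10 genes were higher under ADR, all but Asns, among them Herpud1 by 0.64 and Dnajb9 by 0.53.

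The responses of WT and Suv39h1- lymphomas were compared directly, as the WT change minus the Suv39h1- change. No member passed, with 0.341% of all genes called, and 5 members passed at an unadjusted p under 0.05, against 3424 of all genes. The largest differences were those of Ddit3 at 1.73 log2 (SE 0.50, adjusted p = 0.092), Chac1 at 1.18 (SE 0.51, adjusted p = 0.212), Trib3 at 1.06 (SE 0.53, adjusted p = 0.277) and Ppp1r15a at 0.92 (SE 0.33, adjusted p = 0.143, all by limma). All 10 differences were above 0, down to 0.15 for Atf6, as were those of 10571 of all 18194 genes. Atf3, no member but on a list of ATF4 and CHOP stress factors followed below, passed at 1.96 (SE 0.43, adjusted p = 0.0463 by limma). With the alike lymphomas counted as 1, however, no gene was called in this comparison. The fibroblast list differed as well, with a median of 1.66 over its genes.

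Under ADR, WT cells had higher levels than Suv39h1- cells in 3 members, in a comparison that called 12.6% of all genes. Ppp1r15a had 7.50, 8.21 and 9.37 (lowest, median, highest) in the 14 WT samples, against 7.58, 6.81, 7.30, 7.03 and 7.03 in the 5 Suv39h1- samples. The difference was 1.19 log2 (2.28-fold, SE 0.25, adjusted p = 0.00577 by limma), with ranges that overlap. Ddit3 differed by 1.47 (SE 0.40, adjusted p = 0.0237) and Herpud1 by 0.76 (SE 0.20, adjusted p = 0.0194). Herpud1 had 9.33, 9.87 and 11.13 in the WT samples, against 9.03, 9.14, 9.36, 9.25 and 8.91 in the Suv39h1- samples.

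The Ddit3 call was lost without Suv39h1- lymphoma 7890, 9250 or 4936 (adjusted p = 0.0616 to 0.0959) and with the alike lymphomas counted as 1 (1.19, adjusted p = 0.12). The Herpud1 call was lost without lymphoma 4936 (adjusted p = 0.0582), and its other probe set gave 0.61 (adjusted p = 0.0642 over all probe sets). In the same comparison the fibroblast markers were higher in WT cells by a median of 1.48 (21 of 21 above 0, 2 called) and the macrophage markers by 1.27 (14 of 14 above 0, 1 called), and their share in these differences was not tested. Dnajb9 and Chac1 came close, at 0.59 (adjusted p = 0.0509) and 1.30 (adjusted p = 0.0684). Between native WT and native Suv39h1- cells no member passed, with 1.09% of all genes called, and differences ran from -0.34 for Asns to 0.28 for Ppp1r15a, with no member under an unadjusted p of 0.05. The interval of the native Ddit3 difference was wide, from -1.39 to 0.88 log2.

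In Suv39h1ER cultures under ADR alone, 4 genes of the ATF4 arm had all 3 levels below all 3 native levels, while the ER chaperone arm had no such gene. That pattern held for 9.23% of all genes. By limma no member passed, in a comparison with 0.126% of genes called, and 4 members and 2240 genes had an unadjusted p under 0.05. Trib3 had 6.41, 6.65 and 6.04 under ADR in the 3 cultures (the last ones being 4936 and 5043, in this order throughout), against 8.09, 8.18 and 8.24 in native cells. Its change was -1.80 (SE 0.59, adjusted p = 0.193 by limma), the 135th largest of the 18194 in size.

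Chac1 had 5.38, 5.71 and 5.43 under ADR in the same cultures, against 7.02, 6.44 and 7.50 in native cells, a change of -1.48 (SE 0.56, adjusted p = 0.264). These Chac1 levels under ADR were again near the median gene level of 5.45. Asns had 9.65, 9.26 and 9.64 under ADR, against 10.56, 11.22 and 10.39 in native cells, a change of -1.20 (SE 0.33, adjusted p = 0.126). Atf4 had 10.24, 10.44 and 10.22 under ADR, against 11.04, 10.77 and 10.76 in native cells, with a change of -0.56 (SE 0.19, adjusted p = 0.204, all by limma). These 4 genes were thus lower in 3 of 3 cultures each, without a single call. Their SEs rest on 1 spread per gene shared by all 47 arrays, mostly WT, and not on these 3 cultures alone.

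With 4OHT added to ADR, the same 4 genes again had all 3 levels below the native ones, where 11.9% of all genes did. Both comparisons share the native arrays. Asns passed by limma, as 2.95% of all genes did, and no other member did. It had 9.04, 9.64 and 9.54 under ADR with 4OHT, against 10.56, 11.22 and 10.39 in native cells, a change of -1.31 log2 (0.40-fold, SE 0.33, adjusted p = 0.0321). This call was lost without any 1 of the 3 cultures (adjusted p = 0.0701 to 0.209), without the replicate block (adjusted p = 0.302) and on the second Asns probe set (-1.13, adjusted p = 0.0997 over all probe sets).

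Trib3 had 6.18, 6.80 and 6.89 under ADR with 4OHT, against 8.09, 8.18 and 8.24 in native Suv39h1ER cells, with a change of -1.54 (adjusted p = 0.166 by limma). Chac1 had 5.28, 5.67 and 5.68, against 7.02, 6.44 and 7.50, a change of -1.45 (adjusted p = 0.174 by limma). Its levels with 4OHT were near the median gene level of 5.45 too. Dnajb9 had 9.25, 8.41 and 8.72 under ADR with 4OHT, against 7.71, 8.48 and 7.93 in native cells. Its change of 0.76 (SE 0.22, adjusted p = 0.0698 by limma) was close to the WT value, with 2 of 3 cultures higher and culture 4936 at -0.07, and without that culture it passed at 1.17 (adjusted p = 0.0306). The fibroblast list moved by 0.31 ± 0.33 (SD, n = 3) with 4OHT and by 1.10 ± 0.58 without it, and macrophage markers by 1.09 ± 0.14 and 1.40 ± 1.08.

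No member passed between ADR with 4OHT and ADR alone, with 0.143% of all genes called, and none had an unadjusted p under 0.05, against 2268 genes. Ppp1r15a had 8.03, 7.80 and 8.12 with 4OHT in the 3 cultures, against 7.62, 7.54 and 7.17 without it. The groups did not overlap, and the difference was 0.54 (95% interval -0.20 to 1.28, adjusted p = 0.598 by limma). Hspa5 had 11.59, 11.95 and 11.76 with 4OHT, against 12.33, 12.05 and 11.98 without it, a difference of -0.36 (-0.86 to 0.14, adjusted p = 0.606 by limma). Trib3, Chac1 and Asns, low in both groups, differed by 0.25, 0.03 and -0.11.

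**Figure D3:**
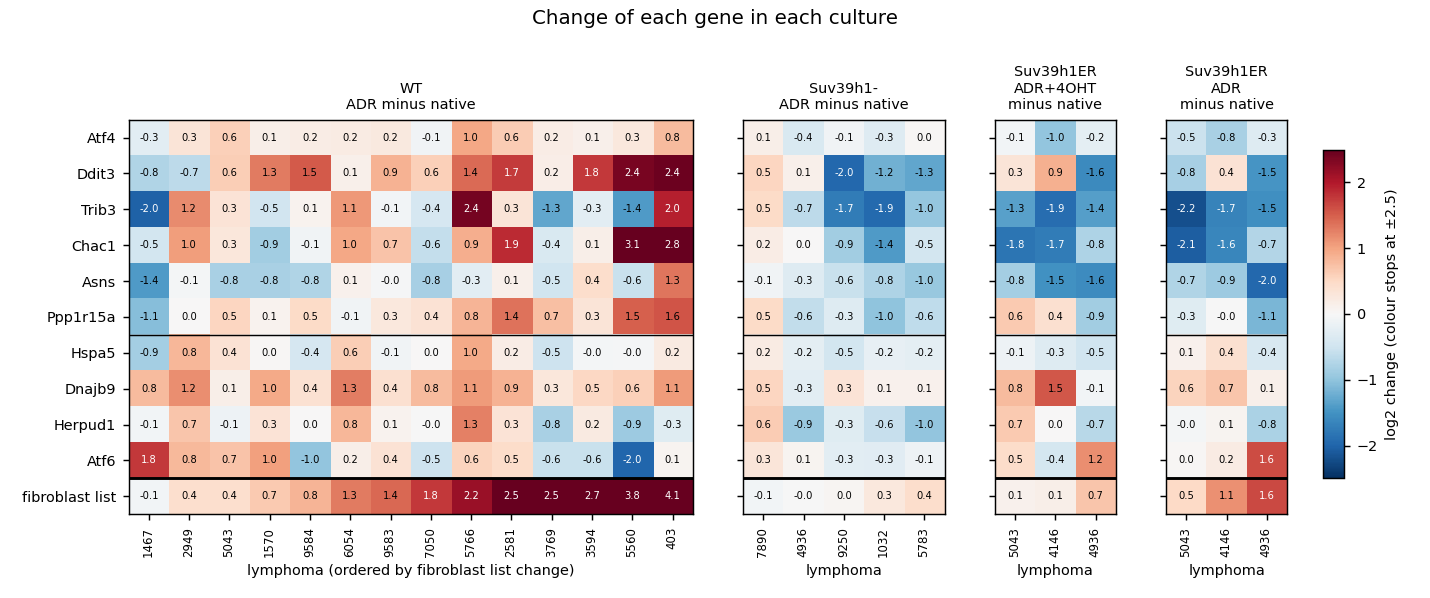
Log2 change of the 10 genes (rows, ATF4 arm above the thin line) in each culture (columns), with the fibroblast list in the bottom row, which also orders the columns. Colours run from blue (lower) to red (higher) and stop at 2.5 in size. Dnajb9 is positive in all 14 WT columns, and Trib3, Chac1 and Asns are negative in all 6 Suv39h1ER columns.

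The arms were then set against each other by the mean change of their members in each culture, given here as a description with no test. In WT lymphomas the mean change was 0.38 ± 0.67 for the ATF4 arm and 0.26 ± 0.46 for the ER chaperone arm (SD, n = 14). The difference was 0.12 ± 0.79, above 0 in 8 of 14 lymphomas, and it ran from -1.41 in lymphoma 1467 to 1.55 in lymphoma 403. Lymphomas 403 and 5560 had ATF4 arm changes of 1.81 and 0.88, while their ER chaperone arm changes were 0.26 and -0.58. The alike lymphomas 5766, 2949 and 6054 had the highest ER chaperone arm changes, 0.96, 0.87 and 0.72, while the other of the alike WT lymphomas, 5043, was at 0.27, the median of the 14.

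In Suv39h1- lymphomas it was -0.55 ± 0.56 for the ATF4 arm and -0.13 ± 0.31 for the ER chaperone arm (SD, n = 5), and the ATF4 arm was the lower one in 4 of 5. Lymphoma 1032, with the low array median under ADR, had the lowest ATF4 arm change, -1.11, and lymphoma 7890 the highest, 0.29. In Suv39h1ER cultures the ATF4 arm was the lower one in all 3 under both treatments. Under ADR with 4OHT the ATF4 and ER chaperone arms were at -0.80 ± 0.28 and 0.21 ± 0.24 (SD, n = 3), a difference of -1.01 ± 0.04. Under ADR alone they were at -1.03 ± 0.22 and 0.21 ± 0.11, a difference of -1.24 ± 0.11. The members of an arm did not all move alike. With 4OHT the positive changes of the ER chaperone arm were those of Dnajb9 (0.76) and Atf6 (0.40). Hspa5 was at -0.32 and Herpud1 at -0.01, and the other Atf6 probe sets gave -0.17 and -0.32. In the ATF4 arm Ddit3 was at -0.13 and Ppp1r15a at 0.05. Under ADR alone Dnajb9 was at 0.45, Atf6 at 0.62, Hspa5 at 0.04 and Herpud1 at -0.26. None of these changes was called. Relative to native WT cells, the ATF4 arm of Suv39h1ER cells stood at -0.30 ± 0.20 under ADR with 4OHT and at -0.53 ± 0.20 under ADR alone, against 0.50 ± 0.30 in native Suv39h1ER cells. The corresponding values in Suv39h1- cells were -0.50 ± 0.19 under ADR and 0.05 ± 0.62 in native cells (SD, n = 5).

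**Figure D4:**
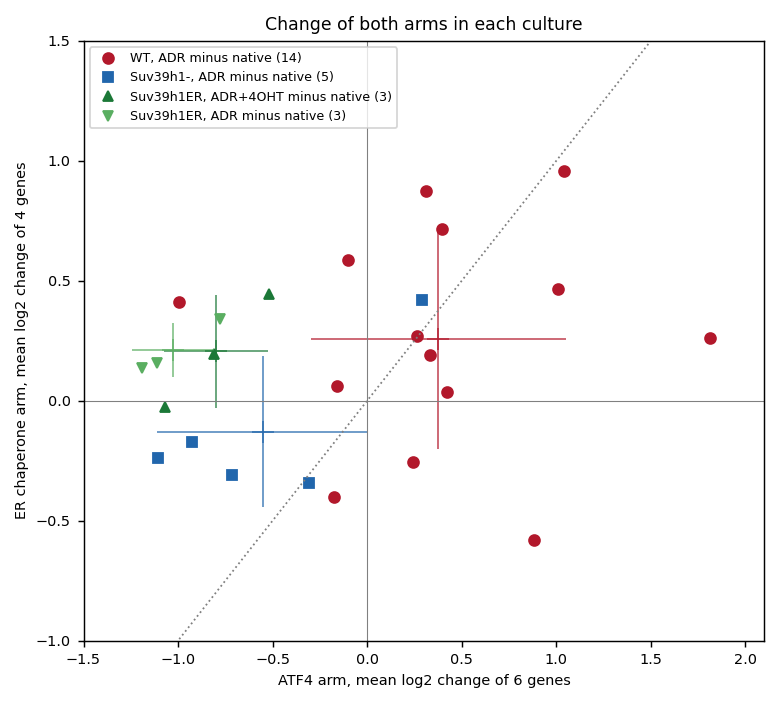
Mean log2 change of the ER chaperone arm (4 genes, y axis) against that of the ATF4 arm (6 genes, x axis) in each culture, with crosses at group means ± SD and a dotted line where both are equal. WT lymphomas scatter on both sides of the line, and the 6 Suv39h1ER points lie left of it with ATF4 arm changes of -1.19 to -0.52.

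The order of group means differed between the arms' genes. Ddit3 was highest in WT cells under ADR (8.57 ± 0.75), and lowest in Suv39h1- cells under ADR (7.10 ± 1.03). Trib3 and Chac1 were highest in native Suv39h1ER cells (8.17 ± 0.08 and 6.99 ± 0.53) and lowest in Suv39h1ER cells under ADR alone (6.37 ± 0.31 and 5.51 ± 0.18). Dnajb9 was highest in WT cells under ADR (8.98 ± 0.36), followed by Suv39h1ER cells under ADR with 4OHT (8.80 ± 0.42) and under ADR alone (8.49 ± 0.11), and lowest in native Suv39h1ER cells (8.04 ± 0.40). For these 4 genes each step to the next group in the order was smaller than the larger of both SDs, so neighbours did not differ beyond their spread.

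Across the 25 treated-minus-native changes, the genes of the ATF4 arm were positively correlated. Pearson correlations over their 15 pairs were 0.49 to 0.85 with a median of 0.61, highest for Ddit3 with Ppp1r15a (0.85) and Atf4 with Trib3 (0.82). The 6 pairs of the ER chaperone arm ran from 0.01 to 0.69 with a median of 0.35, lowest for Dnajb9 with Atf6 and highest for Dnajb9 with Herpud1. Between the arms the 24 pairs ran from -0.47 (Ppp1r15a with Atf6) to 0.72 (Trib3 with Hspa5), with a median of 0.32. The pairs within the ER chaperone arm were thus close to those between the arms. These are descriptions over changes that share cultures, feeder cells and, for Suv39h1ER, native arrays. They pool groups with different mean changes, and no background over other gene pairs is given.

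By the same measure, the 5 other genes closest to the ATF4 arm were Nfe2l1, an ER-anchored activator of proteasome genes (r = 0.87), the cysteinyl tRNA synthetase Cars (0.85), the amino acid transporter subunit Slc3a2 (0.83), the alanyl tRNA synthetase Aars (0.81) and the pyruvate dehydrogenase kinase Pdk4 (0.80). Closest to the ER chaperone arm were Derl1 (0.77) and Sel1l (0.76), both of ER-associated degradation, then Plut (0.75), the phosphatidylinositol synthase Cdipt (0.73) and Selenos (0.71), an ER membrane selenoprotein.

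The wider pathway was followed in 8 lists. Beside their counts in WT cells stand the 16.1% of all genes called higher under ADR and the 14.1% called lower. Known targets of ATF4 in amino acid supply were lower in WT cells under ADR in 9 of 17 measured genes and higher in 2, with a median change of -0.42, against 0.00 over all genes. Psat1, of serine synthesis, had a mean level of 9.65 under ADR and 10.68 in native WT cells, a change of -1.03 (SE 0.10, adjusted p = 5.84e-08) that was negative in 14 of 14 lymphomas. The mitochondrial serine hydroxymethyltransferase Shmt2 fell by 0.91 and the phosphoserine phosphatase Psph by 0.81 (adjusted p = 2.15e-05 and 0.000367). The 2 higher genes, Slc7a11 (0.48, adjusted p = 0.0273) and Slc3a2 (0.27, adjusted p = 0.0122), encode the subunits of the cystine importer. The tRNA synthetase list had 4 of 12 lower and none higher (median -0.22), led by Mars1 at -0.61 (adjusted p = 3.71e-05), with Tars at -0.27 (adjusted p = 0.0126) and the tRNA exporter Xpot at -0.26 (adjusted p = 0.0349, all by limma).

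The list named ATF4 and CHOP stress factors ran the other way, with 9 of 17 higher in WT cells under ADR and 1 lower (median 0.52). Its name is that of the list, and whether its genes answered to ATF4 or CHOP in these cells was not tested. The fibroblast and macrophage lists moved by 1.76 and 1.37 in the same WT samples. Their share in the changes of all pathway lists was not tested. Dusp4, a MAP kinase phosphatase, was higher in 13 of 14 lymphomas, with a change of 1.75 (SE 0.28, adjusted p = 3.74e-05). The C/EBP factor Cebpb changed by 1.37 (SE 0.17, adjusted p = 1.08e-06), higher in 14 of 14 lymphomas, and so did Jdp2, an AP-1 repressor, by 1.08 (adjusted p = 2.56e-05, all by limma). In Suv39h1- lymphomas these 3 genes had values of 0.12, 0.23 and 0.31 (adjusted p = 0.754 to 0.961). Among 13 eIF2 kinases and regulators, Impact, an inhibitor of the amino acid sensor kinase GCN2, was higher by 1.42 (SE 0.13, adjusted p = 5.63e-08) in 14 of 14 lymphomas, and the eIF2B subunits Eif2b4 and Eif2b5 were lower, with log2 changes of -0.36 and -0.28 (adjusted p = 0.00217 and 0.00913).

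Sensors and transcription factors of the unfolded protein response were higher in 5 of 10 genes and lower in 1 (median 0.39). Creb3, an ER-anchored factor, changed by 0.55 (adjusted p = 5.33e-06, 14 of 14 lymphomas higher), Nfe2l1 by 0.75 (adjusted p = 5.72e-05) and Creb3l1 by 0.55 (adjusted p = 0.000412). The IRE1 gene Ern1 (0.61, adjusted p = 0.0116) and its target Xbp1 (0.58, adjusted p = 0.00244) were among the 5. Both were named after their values were seen, as parts of the branch that induces Dnajb9, and IRE1 activity was not measured. Atf6b was the gene that was lower (-0.30, adjusted p = 0.00943, all by limma).

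Of the ER chaperones and folding enzymes, 3 of 22 were called, all higher (median 0.06), a share near the 16.1% of all genes called higher. The 3 were calreticulin (Calr, 0.49, adjusted p = 5.48e-05), Pdia3 (0.32, adjusted p = 0.0069) and Dnajb11 (0.25, adjusted p = 0.044, all by limma). ER-associated degradation and translocation had 7 of 19 higher and 1 lower (median 0.15), led by the lectin Os9 at 0.51 (adjusted p = 6.85e-06), the retrotranslocation factor Derl2 at 0.63 (adjusted p = 7.26e-06) and Selenos at 0.61 (adjusted p = 0.000882). Cytosolic heat shock genes, a set outside the ER, had 1 of 13 higher, Bag3 at 0.49 (adjusted p = 0.00474), and 1 lower, Stip1 at -0.42 (adjusted p = 0.00245, all by limma), with Hspd1 at -0.27 (adjusted p = 0.0773).

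**Figure D5:**
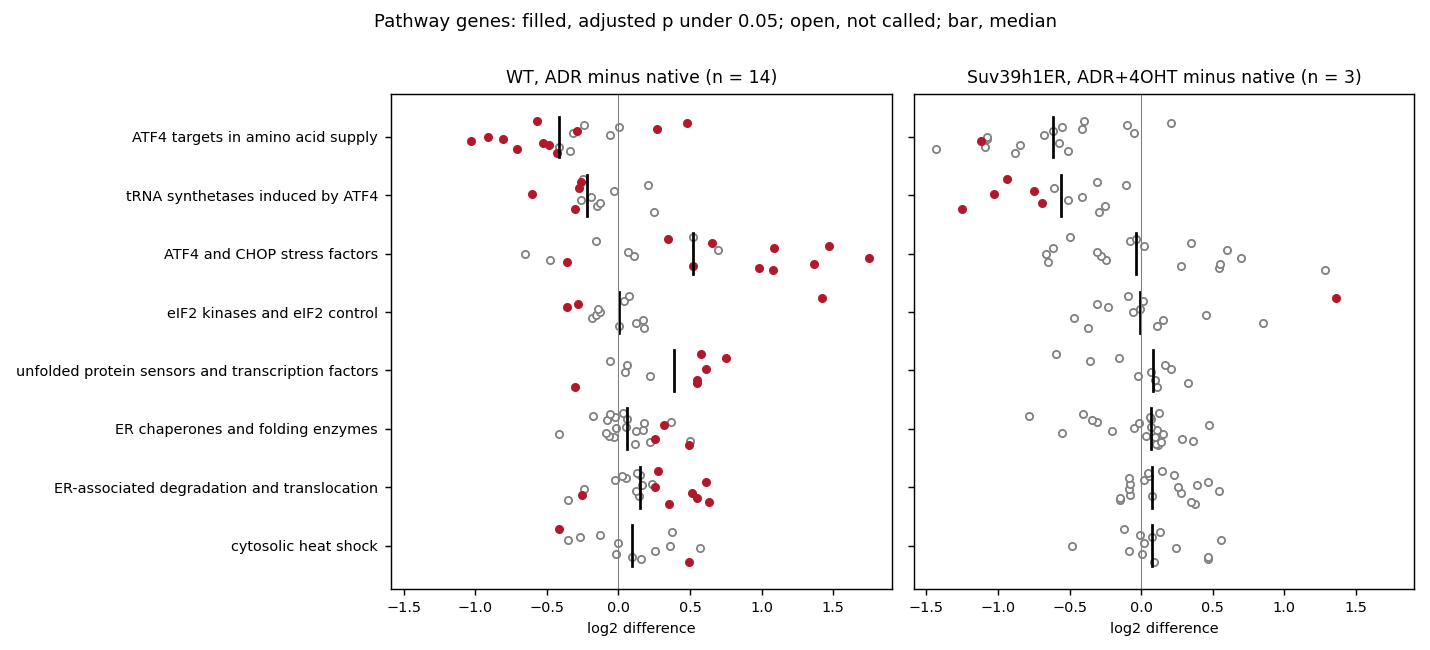
Log2 difference (x axis) of each measured gene of 8 pathway lists (rows) for WT cells under ADR against native and for Suv39h1ER cells under ADR with 4OHT against native. Filled points passed the adjusted p of 0.05, open points did not, and bars are medians. In WT cells the amino acid and tRNA synthetase lists lean left of 0, with medians of -0.42 and -0.22, and the ATF4 and CHOP stress factors lean right at 0.52.

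In Suv39h1- lymphomas no gene of the 8 lists passed between ADR and native cells, where 0.011% of all genes did. None did in Suv39h1ER cells under ADR alone either, where 0.126% of all genes did. The medians of the amino acid and tRNA synthetase lists were -0.52 and -0.45 in the latter. In Suv39h1ER cells under ADR with 4OHT, 5 of 12 tRNA synthetase genes were lower, where 286 of all 18194 genes were called lower. Cars was lower by the most at -1.25 (adjusted p = 0.006), followed by Mars1 at -1.03 (adjusted p = 0.0109), Yars at -0.94 (adjusted p = 0.0207), Sars at -0.75 (adjusted p = 0.0449) and Gars at -0.70 (adjusted p = 0.0364, all by limma). Psat1 was at -1.12 (SE 0.21, adjusted p = 0.006) and Impact at 1.36 (SE 0.29, adjusted p = 0.0125), both with the sign and close to the size they had in WT cells. Their signs were the same in the other groups, without a call. Psat1 and Impact were at -0.36 and 0.55 in Suv39h1- lymphomas, and at -0.52 and 0.77 in Suv39h1ER cells under ADR alone. Between ADR with 4OHT and ADR alone neither was called (adjusted p = 0.233 and 0.403 by limma). Under ADR with 4OHT against native, Cebpb and Dusp4 of the stress factor list had values of 0.55 and 0.69 (adjusted p = 0.507 and 0.68). Jdp2 was at -0.62 (adjusted p = 0.445), and none of the 3 was called. With the arrays of the compared groups alone, 0 genes were called between ADR with 4OHT and native, so the calls of the tRNA synthetase genes, Psat1 and Impact were lost there.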

How the data were processed

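The authors deposited log2 expression levels per probe set. The submitters' processing notes name RMA, oligo and R 3.5.0, and no batch step is stated. On arrays their number, not a read depth, limits the precision. From these values, each gene took its brightest probe set over 47 arrays (18194 genes). Limma 3.58.1 (R 4.3.3) was fitted over all genes with a fixed block for each of the 22 cultures and 4 terms for treatment. The pairing comes from the series design, which describes matched pairs. Deviations of paired arrays correlated above 0.1 in 10 of 14 WT and 5 of 5 Suv39h1- pairs, in 1 of 3 Suv39h1ER pairs under ADR and in 0 of 3 under ADR with 4OHT. Genotypes were compared over 19 arrays without a block. P-values were two-sided and adjusted by Benjamini-Hochberg over all genes, with calls under 0.05. The fit was tested on simulated data. Replicates are lymphomas by their numbers in the labels. Nothing else says that they came from separate animals, and p-values measure the spread between these samples. In the blocked fit all 47 arrays share 1 estimate of the spread per gene, to which the 14 WT pairs give the most. The SEs of the groups of 5 and 3 are therefore not their own spread. For Trib3 the SD of the change was 1.25 in WT lymphomas and 0.35 in Suv39h1ER cultures under ADR alone.

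The members, the lists and the tests were chosen with earlier results of these data known. All 10 members are named. From each pathway list come the 3 genes with the smallest p in WT cells, and for each arm the 5 genes with the highest correlation. Other list genes were named after their values were seen. Alternatives were no block, a random block, other probe sets or their mean, dim genes removed, quantile normalization, fewer groups, array weights, a trended robust prior, alike lymphomas counted once, a fibroblast covariate, and each culture left out. The fit without the 2 farthest lymphomas was added after seeing the data.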

Additional observations from a re-analysis of the deposited data

Results flagged for a closer look

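In the groups of 5 lymphomas, 33 sets of values were checked for a sample far from the others, and 3 were found, where chance gives about 1 in 20. Asns under ADR in Suv39h1- lymphoma 5783 had a level of 9.16, below the other 4 at 9.73 to 9.94. Herpud1 in native Suv39h1- lymphoma 7890 had a level of 8.50, below the others at 9.66 to 10.03. The ER chaperone arm of the same lymphoma 7890 changed by 0.42 under ADR, while the other 4 lay between -0.34 and -0.17. Lymphoma 7890 is 1 of the pair with alike profiles, and its native levels of Ddit3 (6.32), Ppp1r15a (6.34) and Trib3 (6.35) were the lowest of the 5 native samples.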

How the results depend on the processing

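The 4 calls in WT lymphomas became 3 to 5 when single lymphomas were left out, and 3 without the replicate block. At a fibroblast list change of 0, 2 members passed, Dnajb9 as higher and Asns as lower (-0.895, adjusted p = 0.0199). There Atf4 was at 0.12 (adjusted p = 0.692), and the changes were -0.075 for Ddit3, -0.176 for Trib3, -0.493 for Chac1 and -0.307 for Ppp1r15a. With alike lymphomas counted once, Trib3 was at -0.213, Hspa5 at -0.074, Herpud1 at -0.036 and Atf6 at -0.034. Dimmer probe sets turned Hspa5 to -0.134, Herpud1 to -0.007 and Atf6 to -0.075. Leaving out single lymphomas gave -0.076 to 0.262 for Trib3 and -0.037 to 0.251 for Atf6. Without the 2 farthest lymphomas, chosen after seeing the data, 1 of the 5 fibroblast slopes passed, and that of Dnajb9 was -0.036.

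In Suv39h1ER cells under ADR, Hspa5 was at -0.042 by the mean of probe sets, -0.046 after quantile normalization and -0.026 and -0.137 on other probe sets, and Atf6 at -0.094 on another. Leaving out cultures gave -0.15 to 0.256 for Hspa5 and -0.424 to 0.013 for Herpud1. With 4OHT against native cells, 0 members passed without the replicate block, with a random block, by the mean of probe sets and with the compared groups alone, 2 passed among brighter genes, and 0 to 1 when cultures were left out. In that comparison Herpud1 was 0.146 under array weights, and Atf6 was -0.033 by the mean of probe sets and -0.171 and -0.323 on others. Leaving out cultures gave -0.634 to 0.601 for Ddit3, -0.243 to 0.519 for Ppp1r15a and -0.341 to 0.328 for Herpud1. With 4OHT against ADR alone, Atf4 was -0.094 on another probe set and Atf6 0.107 under weights, and leaving out cultures gave -0.049 to 0.282 for Atf4, -0.041 to 0.495 for Trib3, -0.072 to 0.103 for Chac1 and -0.352 to 0.143 for Asns. The difference of the arms was -1.056 by the median, -1.396 without Herpud1 and -1.074 by the mean of probe sets under ADR, and -1.078 and -0.844 by the last 2 of these with 4OHT.

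Between WT and Suv39h1- cells under ADR, 5 members passed among brighter genes and 1 to 4 when lymphomas were left out, with Asns at 0.001 and Hspa5 at -0.152 on other probe sets and Asns at -0.222 to 0.036 over the lymphomas left out. The causes were not tested. Over all settings the number of genes called was 2129 to 6294 for WT, 0 to 84 for Suv39h1-, 1 to 109 for Suv39h1ER under ADR, 0 to 970 with 4OHT, 0 to 222 for 4OHT against ADR alone, 0 to 258 for the difference of responses, and 939 to 3389 and 109 to 316 between genotypes under ADR and native.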
